A study of Mus musculus with 8 samples.

Results

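The genes that bring new proteins into the endoplasmic reticulum (ER) and carry them on to the Golgi were compared between Tcf1 knock-out and wild type mouse pancreatic islets. The members were all probe sets whose single annotated gene symbol named a subunit of the signal recognition particle (Srp) or its receptor, a Sec gene, a translocon-associated protein (Ssr), a signal peptidase subunit (Spcs), a Sar1 GTPase, a COPI coat subunit (Cop and Arcn1) or a p24 protein (Tmed). The rule reads names alone, and it was set with earlier results of these data known. It gave 100 probe sets of 58 genes, out of 24965 probe sets in all and 13675 genes with a single annotated symbol. Of these probe sets 66 were on the Affymetrix array MG-U74A and 34 on MG-U74B, and 15 of the genes were on both. The pattern also took in Sec-named genes that belong to no translocon or coat, such as the Sec22 and Sec14-like genes, and these are described apart. One of them, Sec1, is a gene related to fucosyltransferases. Every member had the same name in the array annotation and in the current gene table.

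Total RNA of islets from Tcf1 knock-out mice and from wild type mice was hybridised to both array types, with 2 arrays of each genotype on each type and 8 arrays in all. The submitters call the replicates biological. Strain, age, sex, the kind of Tcf1 allele and whether animals were pooled are not given in the sources used here, so p-values speak only of how far these arrays spread, part of which may be technical. The genotypes are as labelled, and the targeted gene itself was not analysed here.

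Secretory cells such as beta cells make most of their protein on ribosomes bound to the ER. The signal recognition particle (SRP) binds the signal sequence of a nascent chain and hands it, through its receptor, to the Sec61 channel, next to which the TRAP complex sits and where signal peptidase cuts the signal off. COPII coats bud vesicles from the ER, COPI coats return vesicles from the Golgi, and p24 proteins are membrane cargo receptors that travel in both. These genes are expressed in all cells and are abundant in cells that secrete much, among them endocrine, acinar and plasma cells.

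On MG-U74A the genotypes differed at a large share of all probe sets, and the arrays of a genotype were alike, with a Spearman correlation of 0.956 between the knock-out arrays and 0.979 between the wild type arrays, against 0.865 to 0.868 between genotypes. Markers of other cell types moved with genotype. Intensities of islet hormone and islet factor probe sets summed to between 91982 and 102761 in knock-out islets, against 152737 to 153493 in wild type islets, and 11 of 11 tested probe sets fell, so the tissue's own markers were present in both genotypes and lower in knock-out islets. Acinar markers summed to 5503 to 5944 in knock-out islets, against 41811 to 42115 in wild type islets, and 11 of 11 fell. Among them the knock-out mean of Clps was below 0, with 44.2 and -60.5 on the knock-out arrays. B and plasma cell markers summed to 35160 to 35464 in knock-out islets, against 6232 to 6439 in wild type islets, where Cd22 and Cd79a were at or below 0, and 16 of 21 rose. Most of these rises were of the single gene Ighm, and the others of Jchain, Cd79a, Cd79b, Pou2af1, Blk and Ms4a1. No probe set of Sdc1 or Tnfrsf17 passed. Exocrine markers were thus lower and immune markers higher in knock-out islets. Macrophage markers summed to 8569 to 8750 in knock-out islets, against 2547 to 2741 in wild type islets, and 9 of 10 rose. Fibroblast markers summed to 24650 to 25912 in knock-out islets, against 8280 to 8302 in wild type islets, with 12 of 14 that rose and 1 that fell. T cell markers were low in both, with sums of 1282 to 1357 in knock-out islets, against 568 to 613 in wild type islets, and 2 of 4 rose. Duct markers summed to 5085 to 5312 in knock-out islets, against 7518 to 8212 in wild type islets, with 3 of 6 that fell and 1 that rose. None of these sums on MG-U74A overlapped between genotypes. The Gapdh 3' signal divided by the Gapdh 5' signal, which is near 1 for intact RNA, was 0.943 ± 0.00849 in knock-out islets, against 3.19 ± 0.0499 in wild type islets (SD, n = 2). The same ratio for actin was 1.14 ± 0.0269 in knock-out islets, against 1.46 ± 0.0157 in wild type islets. The BioB probe sets, which read RNA added to the sample from outside, averaged an intensity of 3820 ± 317 in knock-out islets, against 183 ± 17.0 in wild type islets, and on MG-U74B 10693 ± 1623 in knock-out islets, against 471 ± 19.9 in wild type islets. BioB signals were thus higher on knock-out arrays of both types. The part of these differences in the results on the secretory genes was not tested. In such bulk RNA, fewer cells of a type and less RNA per cell cannot be told apart.

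Most of the secretory genes that changed were lower in Tcf1 knock-out islets. The values given per array are intensities in arbitrary units, the tested differences are log2 changes, and both arrays of a genotype are listed in the order of their replicate numbers. A probe set was said to rise or fall when limma's p, adjusted by Benjamini-Hochberg over all tested probe sets of its array type, was under 0.05. On MG-U74A 42 of the 54 tested member probe sets changed, of which 30 fell and 12 rose, where 52.9% of all tested probe sets changed, 29.0% fell and 23.9% rose. The median log2 change, knock-out minus wild type, was -0.36 over these members and -0.09 over all 7516 tested probe sets. On MG-U74B 12 of 29 changed, of which 9 fell and 3 rose, where 17.5% of all tested probe sets changed, 8.87% fell and 8.59% rose, and the median was -0.28 over the members and 0.11 over all 7861. The genotypes did not overlap at 50 of the 54 members on MG-U74A, where 79.1% of all tested probe sets did not: both knock-out arrays were the lower ones at 34 members (43.9% of all) and the higher ones at 16 (35.2% of all). On MG-U74B they did not overlap at 19 of 29, where 65.0% of all did not, with the knock-out arrays lower at 14 (28.8% of all) and higher at 5 (36.2% of all). Without either wild type array, fewer members fell and fewer rose on MG-U74A, as over all tested probe sets. The members' median was then -0.29 without the first and -0.36 without the second, against -0.10 and -0.10 over all. On MG-U74B no probe set of the type passed limma's test when either of the wild type arrays was left out. Fewer members passed there without either knock-out array, as over all tested probe sets. Of the 42 calls on MG-U74A, 21 held in every alternative tried, and none of the 12 on MG-U74B did.

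Counted by gene over both types, 28 of the 58 genes fell, 9 rose, 5 had probe sets with opposed changes, and 15 had no probe set that passed. Sec1 alone had no tested probe set, with 43.0 and 21.3 in knock-out islets, against 45.9 and 46.8 in wild type islets. A mean of at least double the common array mean of about 250 was seen at 37 of the 54 members and at 2158 of all 7516 tested probe sets on MG-U74A, so the members were also counted among probe sets of that signal. There 24 of 37 members fell and 6 rose on MG-U74A, where 40.6% of all probe sets that bright fell and 34.3% rose. On MG-U74B 8 of 13 such members fell and 1 rose, where 16.4% fell and 15.4% rose. Falls of at least 1 log2 unit were seen at 5 of the 54 members on MG-U74A and such rises at 3, where 10.3% and 10.9% of all tested probe sets had them. The share of such falls was thus near that of all probe sets. On MG-U74B 3 of the 29 tested members had such falls and 2 such rises, where 6.51% and 5.75% of all had them.

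**Figure D1:**
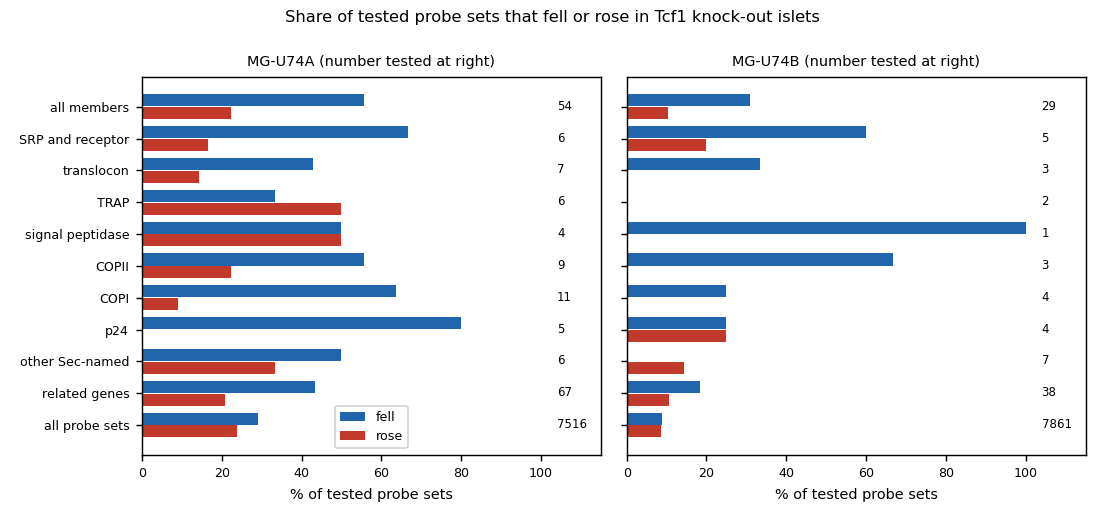
Percent of tested probe sets that fell (blue) or rose (red) in Tcf1 knock-out islets relative to wild type at an adjusted p under 0.05, for the members, each role, the related secretory genes and all probe sets, on MG-U74A (left) and MG-U74B (right), with the number tested at the right edge of each panel. On MG-U74A 30 of 54 members fell, with the largest share among the p24 proteins (4 of 5), and the TRAP complex had more rises (3) than falls (2).

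**Figure D2:**
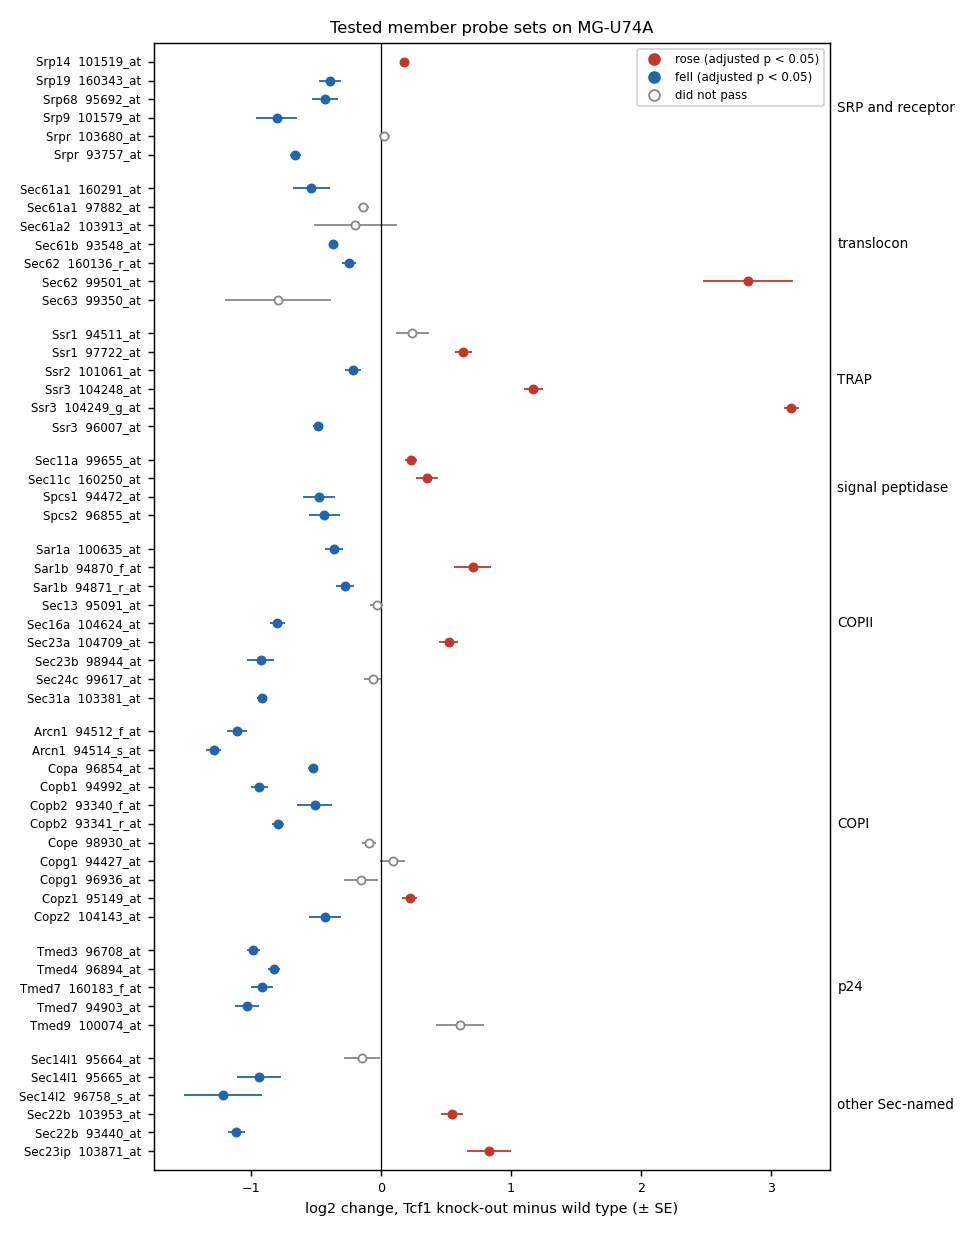
Log2 change, knock-out minus wild type, with its standard error, for each of the 54 tested member probe sets on MG-U74A, grouped by role; filled points passed the test (red rose, blue fell) and open points did not. COPI and p24 points lie mostly left of 0, while 3 points of Ssr3 and Sec62 lie right of 1.

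The promoters of the members were searched for sequences of the unfolded protein response, since XBP1, a factor of this response that induces many secretory genes, is known to bind elements with an ACGTG core. RefSeq windows of GRCm38.p6, from 250 bases before to 50 after the start, were matched for 48 of the 58 genes. The motif CCACGT, on the other strand ACGTGG, was in 21 of these 48 genes (43.8%), against 12.9% of the 8048 genes with a tested probe set, 10.3% of 17491 protein-coding genes and 28.1% of 64 related secretory genes. The longer motif TGACGTG, on the other strand CACGTCA, was in 5 of 48 (10.4%), against 3.47% of genes with a tested probe set and 10.9% of the related genes. A TGACGTG followed by G holds both motifs overlapping, and 4 of the 5 genes hold both. These 5 windows are shown because they hold the longer motif, with each motif in capitals, 5′ to 3′ on the gene's strand. They lie at chr7:114254631-114254930, minus strand (Copb1), chr9:98563481-98563780, plus strand (Copb2), chr12:59011968-59012267, minus strand (Sec23a), chr3:123267246-123267545, plus strand (Sec24d) and chr9:35210953-35211252, plus strand (Srpr).
Copb1: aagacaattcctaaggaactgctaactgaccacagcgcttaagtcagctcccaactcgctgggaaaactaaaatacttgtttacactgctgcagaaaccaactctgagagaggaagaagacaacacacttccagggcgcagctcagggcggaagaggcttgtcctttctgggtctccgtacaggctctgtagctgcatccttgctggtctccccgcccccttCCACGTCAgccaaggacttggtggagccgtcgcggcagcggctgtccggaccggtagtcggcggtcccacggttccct
Copb2: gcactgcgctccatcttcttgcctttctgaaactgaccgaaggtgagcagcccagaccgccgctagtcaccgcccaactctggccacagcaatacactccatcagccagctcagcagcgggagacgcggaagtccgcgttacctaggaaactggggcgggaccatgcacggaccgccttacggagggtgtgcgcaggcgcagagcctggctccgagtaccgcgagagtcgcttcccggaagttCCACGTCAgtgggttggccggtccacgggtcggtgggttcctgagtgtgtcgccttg
Sec23a: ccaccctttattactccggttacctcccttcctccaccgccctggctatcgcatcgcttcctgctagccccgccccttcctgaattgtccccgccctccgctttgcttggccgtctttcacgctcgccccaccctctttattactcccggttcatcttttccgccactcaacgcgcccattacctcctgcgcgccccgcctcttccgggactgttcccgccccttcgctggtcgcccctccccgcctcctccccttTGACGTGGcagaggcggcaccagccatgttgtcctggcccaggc
Sec24d: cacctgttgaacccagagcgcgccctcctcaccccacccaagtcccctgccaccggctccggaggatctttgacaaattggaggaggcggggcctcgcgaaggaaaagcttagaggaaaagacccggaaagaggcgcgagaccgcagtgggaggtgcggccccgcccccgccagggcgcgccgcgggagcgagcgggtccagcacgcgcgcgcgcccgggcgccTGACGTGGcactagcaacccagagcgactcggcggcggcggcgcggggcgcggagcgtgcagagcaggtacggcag
Srpr: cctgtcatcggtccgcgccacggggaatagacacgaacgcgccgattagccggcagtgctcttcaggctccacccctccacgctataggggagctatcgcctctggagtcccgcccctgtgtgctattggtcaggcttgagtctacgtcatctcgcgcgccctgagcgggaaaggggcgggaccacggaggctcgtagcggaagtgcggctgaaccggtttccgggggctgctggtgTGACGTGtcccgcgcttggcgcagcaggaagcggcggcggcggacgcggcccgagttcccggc
All 5 matches lie within 30 bases of the start. Copb1, Copb2, Sec24d and Srpr fell and Sec23a rose, as described with their roles below. Of the 21 genes with CCACGT, 9 fell, 3 rose, 1 had opposed probe sets and 8 did not pass, and of the 27 without it, 12 fell, 4 rose, 4 had opposed probe sets, 6 did not pass and 1 was not tested. A match is a description of these letters and shows no binding, and no test compared the genes with and without it. The genes Arcn1, Sec11c, Sec14l4, Sec61a1, Spcs3, Srp19, Srp68, Ssr2, Tmed2 and Tmed7 had no window in the table.

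Subunits of SRP and of its receptor mostly fell. On MG-U74A 4 of 6 tested probe sets fell and 1 rose, and on MG-U74B 3 of 5 fell and 1 rose. For this and each role below, the shares of all tested probe sets were 29.0% that fell and 23.9% that rose on MG-U74A. On MG-U74B they were 8.87% and 8.59%. Each role had few tested probe sets. Srpr, the receptor subunit that docks SRP at the ER membrane, had intensities of 2387 and 2349.5 in knock-out islets, against 3842 and 3662 in wild type islets. The genotypes did not overlap, and its log2 change was -0.66 ± 0.04 (adjusted p = 0.0007), which held in every alternative. A second Srpr probe set on MG-U74A, 103680_at, did not pass, with 794 and 788 in knock-out islets, against 776 and 777 in wild type islets and a log2 change of 0.03 ± 0.04 (adjusted p = 0.658). On MG-U74B its probe set 164461_f_at, of a kind that matches a family of similar transcripts, had 673 and 671 in knock-out islets, against 1001 and 1094 in wild type islets. It fell by 0.62 ± 0.13 (adjusted p = 0.0357), a call lost without either wild type array or either knock-out array.

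Srp9 and Srp14 form the part of SRP that slows translation while the ribosome is targeted. Srp9 had 404 and 552 in knock-out islets, against 830.1 and 857 in wild type islets, and fell by 0.80 ± 0.16 on the log2 scale (adjusted p = 0.0164). Its partner Srp14 rose slightly, with 1812 and 1812 in knock-out islets, against 1609 and 1586 in wild type islets and a log2 change of 0.18 ± 0.03 (adjusted p = 0.0157). So these partners changed in opposite directions, with no overlap between genotypes in either. Srp68, a scaffold protein of the particle, had 828 and 897 in knock-out islets, against 1268 and 1079 in wild type islets, and fell by 0.43 ± 0.10 (adjusted p = 0.0244). Srp19, which binds SRP RNA as the particle assembles, had 237 and 253 in knock-out islets, against 329 and 329.8 in wild type islets, and fell by 0.39 ± 0.08 (adjusted p = 0.0204). In these 4 genes the genotypes did not overlap, but without the first wild type array none of the 4 calls remained (adjusted p 0.0702 to 0.131), and without the second those of Srp9, Srp14 and Srp19 ended. Srp68 was also lost without either knock-out array.

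Srp72, which pairs with Srp68, was measured by 3 probe sets on MG-U74B that disagreed. The probe set 106574_at had 1959.5 and 1939 in knock-out islets, against 3380.2 and 3216 in wild type islets, and 106575_at had 1755 and 1686 in knock-out islets, against 3163 and 2967 in wild type islets. Both were lower on the knock-out arrays, and 106574_at fell by 0.75 ± 0.09 (adjusted p = 0.0115) and 106575_at fell by 0.82 ± 0.10 (adjusted p = 0.0107). The third, 107619_s_at, whose probes are shared by similar transcripts, had 1402 and 1408 in knock-out islets, against 955 and 1005 in wild type islets, and rose by 0.51 ± 0.11 (adjusted p = 0.039). All 3 calls ended without either wild type array or the first knock-out array, and that of 107619_s_at also without the second. Srprb, the membrane-anchored receptor subunit, was not tested on MG-U74A for its low signal and on MG-U74B did not pass, with 469 and 329.6 in knock-out islets, against 438 and 411 in wild type islets (adjusted p = 0.782), where the genotypes overlapped.

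In the translocon, the channel subunit Sec61b fell and the others were mixed. On MG-U74A 3 of 7 tested probe sets fell and 1 rose, and the 57.1% that changed were close to the 52.9% of all tested probe sets. On MG-U74B 1 of 3 fell. Sec61b, the small beta subunit, had 2159 and 2207 in knock-out islets, against 2862 and 2782 in wild type islets, and fell by 0.37 ± 0.04 (adjusted p = 0.00239), with no overlap and in every alternative. Sec61a1, the pore-forming subunit, had 1058 and 879.8 in knock-out islets, against 1270.3 and 1568 in wild type islets at the probe set 160291_at, and fell by 0.54 ± 0.14 (adjusted p = 0.0379). That call ended without either knock-out array or the second wild type array. Its other probe set, 97882_at, had 1489 and 1463 in knock-out islets, against 1586 and 1664 in wild type islets, and did not pass (-0.14 ± 0.04, adjusted p = 0.0583), although the wild type arrays were again the higher ones. Sec61a2, a second form of that subunit, did not pass (log2 change -0.20 ± 0.32, adjusted p = 0.633).

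Sec62 and Sec63 sit beside the channel and serve proteins that enter after translation. Sec63 had 140.2 and 164 in knock-out islets, against 438 and 426 in wild type islets at the probe set 114830_at on MG-U74B, and fell by 1.37 ± 0.24 (adjusted p = 0.0245). This is among the largest changes of the members on that type, and the call ended without any 1 of the 4 arrays (adjusted p 0.0591 to 0.174). At 116908_at Sec63 had 624 and 421 in knock-out islets, against 1020.2 and 852 in wild type islets, and did not pass (-0.83 ± 0.23, adjusted p = 0.0747). On MG-U74A it had 119 and 42.5 in knock-out islets, against 146 and 147 in wild type islets, with a wide gap between the knock-out arrays, and did not pass (-0.80 ± 0.41, adjusted p = 0.175). All 3 Sec63 probe sets were lower on both knock-out arrays than on both wild type arrays.

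Probe sets of Sec62 disagreed. On MG-U74A the probe set 99501_at had 177 and 235 in knock-out islets, against 17.0 and -19.7 in wild type islets, and rose by 2.82 ± 0.35 (adjusted p = 0.00457). Its wild type values were near 0, so the size of this change depends on the constant added before log2. At 160136_r_at, chosen under relaxed design rules, Sec62 had 649.7 and 617 in knock-out islets, against 762 and 751 in wild type islets, and fell by 0.25 ± 0.05 (adjusted p = 0.0213), a call lost without either wild type array. On MG-U74B the set 162967_r_at did not pass, with 1528 and 1535 in knock-out islets, against 1505 and 1618 in wild type islets, and the genotypes overlapped (-0.03 ± 0.10, adjusted p = 0.873). A dim probe set on each type, 92531_at and 165032_i_at, was not tested.

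The TRAP complex, which assists the channel with some signal sequences, accounted for 3 of the 12 rises on MG-U74A. There 3 of 6 tested probe sets rose and 2 fell, and on MG-U74B neither of 2 passed. All 3 rises were of Ssr1 and Ssr3. Ssr3, the gamma subunit, had 1359 and 1376 in knock-out islets, against 131 and 131 in wild type islets at 104249_g_at. The knock-out mean was 10.4 times the wild type mean, and its log2 change of 3.16 ± 0.06 was the largest among the tested members (adjusted p = 9.54e-05). This set carries one of the suffix letters described below with the opposed probe sets. The set 104248_at had 1297 and 1287 in knock-out islets, against 593 and 527 in wild type islets, and rose by 1.17 ± 0.07 (adjusted p = 0.000737). The third Ssr3 probe set, 96007_at, went the other way, with 2467 and 2338 in knock-out islets, against 3392 and 3350.1 in wild type islets, and fell by 0.49 ± 0.04 (adjusted p = 0.00162). All 3 calls held in every alternative. On each of these probe sets the genotypes were far apart relative to the spread within a genotype.

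Ssr1, the alpha subunit, had 893 and 813 in knock-out islets, against 541 and 539.9 in wild type islets at 97722_at, and rose by 0.63 ± 0.07 (adjusted p = 0.00289), in every alternative. Its second probe set, 94511_at, had 194 and 193 in knock-out islets, against 148 and 173 in wild type islets, and did not pass (0.24 ± 0.13, adjusted p = 0.183). On MG-U74B its probe set 104983_at had 54.1 and 12.4 in knock-out islets, against 302 and 86.0 in wild type islets. The knock-out arrays were the lower ones there, with a wide spread in wild type islets, and it did not pass (-1.81 ± 0.75, adjusted p = 0.164). Ssr2, the beta subunit, had 1208 and 1338 in knock-out islets, against 1471 and 1495 in wild type islets, and fell by 0.22 ± 0.06 (adjusted p = 0.0457), a call lost without either wild type array (adjusted p 0.166 and 0.202). Ssr4, the delta subunit, was at background on MG-U74A and did not pass on MG-U74B, with 329.8 and 437 in knock-out islets, against 275 and 405 in wild type islets (adjusted p = 0.687).

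Signal peptidase was split between its catalytic and its other subunits. The catalytic subunits Sec11a and Sec11c rose, and Spcs1, Spcs2 and Spcs3, which hold no active site, fell. Sec11a had 971 and 1002 in knock-out islets, against 826 and 844 in wild type islets, and rose by 0.23 ± 0.05 (adjusted p = 0.0162). Sec11c had 552 and 563 in knock-out islets, against 458 and 404 in wild type islets, and rose by 0.36 ± 0.08 (adjusted p = 0.026). For both the genotypes did not overlap.

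Spcs2 had 1092 and 1375 in knock-out islets, against 1651 and 1682 in wild type islets, and fell by 0.44 ± 0.12 (adjusted p = 0.0412). Spcs1, a dim probe set, had 135 and 122 in knock-out islets, against 192 and 185 in wild type islets, and fell by 0.47 ± 0.12 (adjusted p = 0.0349). Spcs3, the only one of these on MG-U74B, had 2541 and 2729 in knock-out islets, against 4163 and 4248 in wild type islets, and fell by 0.67 ± 0.09 (adjusted p = 0.0148). Its arrays did not overlap between genotypes. These 5 calls were fragile. The 4 on MG-U74A ended without either wild type array (adjusted p 0.0532 to 0.197), the Sec11c call also without either knock-out array and Spcs1 without the second, and Spcs3 ended without either wild type array or the first knock-out array.

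COPII coat genes mostly fell. On MG-U74A 5 of 9 tested probe sets fell and 2 rose, where 29.0% of all fell and 23.9% rose, so the share that rose was near that of all. On MG-U74B 2 of 3 fell. Sec31a, of the outer cage of the coat, had 902 and 889 in knock-out islets, against 1699.9 and 1730.0 in wild type islets, and fell by 0.92 ± 0.04 (adjusted p = 0.000341). Sec16a, the scaffold of the ER exit sites where coats form, had 585 and 595 in knock-out islets, against 1006 and 1082 in wild type islets, and fell by 0.80 ± 0.06 (adjusted p = 0.00109). In both genes the genotypes were widely apart, and both calls held in every alternative. Sec13, which pairs with Sec31a in the cage and serves the nuclear pore too, did not pass, with 1305 and 1223 in knock-out islets, against 1311 and 1276 in wild type islets and a log2 change of -0.03 ± 0.05 (adjusted p = 0.611).

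The paralogs Sec23a and Sec23b, which activate the GTPase Sar1 in the inner coat, changed in opposite directions. Sec23b had 641 and 785 in knock-out islets, against 1354 and 1390.2 in wild type islets, and fell by 0.93 ± 0.11 (adjusted p = 0.00387). Sec23a had 581 and 575 in knock-out islets, against 376 and 415 in wild type islets, and rose by 0.52 ± 0.07 (adjusted p = 0.00653). Neither gene's arrays overlapped between genotypes, and both calls held in every alternative. Wild type islets had the higher values for Sec23b and knock-out islets those for Sec23a. In Sec23a the promoter shown above carries its motif just after the start.

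Sec24 proteins choose the cargo of COPII vesicles. Sec24d had 1559 and 1674 in knock-out islets, against 2361 and 2585 in wild type islets, and fell by 0.60 ± 0.11 (adjusted p = 0.0255), and Sec24a had 537 and 669 in knock-out islets, against 1018 and 1078 in wild type islets, and fell by 0.78 ± 0.16 (adjusted p = 0.0359). Both are on MG-U74B, and both calls ended when any 1 of the 4 arrays was left out (adjusted p 0.0521 to 0.204). Sec24b on MG-U74B (-0.19 ± 0.24, adjusted p = 0.607) and Sec24c on MG-U74A (-0.06 ± 0.07, adjusted p = 0.518) did not pass, and their genotypes overlapped.

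Sar1a and Sar1b are the GTPases that start a COPII coat. Sar1a had 1802 and 1591 in knock-out islets, against 2209.7 and 2155 in wild type islets, and fell by 0.36 ± 0.07 (adjusted p = 0.0166), a call lost without either wild type array. Sar1b had 407 and 337 in knock-out islets, against 199 and 238 in wild type islets at 94870_f_at, and rose by 0.71 ± 0.14 (adjusted p = 0.0183). At 94871_r_at Sar1b had 369.6 and 394 in knock-out islets, against 472 and 462 in wild type islets, and fell by 0.27 ± 0.07 (adjusted p = 0.0321). Both Sar1b calls ended without the first wild type array (adjusted p 0.0873 and 0.186), the rise also without the first knock-out array and the fall without the second wild type array.

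COPI coat genes mostly fell. On MG-U74A 7 of 11 tested probe sets fell and 1 rose, with a median of -0.51 on the log2 scale, and on MG-U74B 1 of 4 fell. Arcn1, the delta subunit, had 371 and 391 in knock-out islets, against 957 and 975 in wild type islets at 94514_s_at. The knock-out mean was 0.394 of the wild type mean, and the gene fell there by 1.29 ± 0.06 (adjusted p = 0.000362), the largest fall among the members on MG-U74A. A second set of that type, 94512_f_at, had 297 and 270.3 in knock-out islets, against 624 and 657 in wild type islets, and fell by 1.11 ± 0.08 (adjusted p = 0.00105). Both of these sets carry a suffix letter for probes that may match similar transcripts. On MG-U74B the set 111446_at had 573 and 561 in knock-out islets, against 1276 and 1197 in wild type islets, and fell by 1.09 ± 0.12 (adjusted p = 0.0103). So 3 probe sets of Arcn1 on both array types changed by -1.29 to -1.09, and the call of 111446_at ended when either wild type array or the first knock-out array was left out (adjusted p 0.0528 to 0.112). Another set, 115361_at, had 155 and 28.7 in knock-out islets, against 197 and 153 in wild type islets, with an overlap between genotypes, and did not pass (-1.02 ± 0.67, adjusted p = 0.339).

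Copb1, the beta subunit, had 618 and 563 in knock-out islets, against 1139.7 and 1161 in wild type islets, and fell by 0.93 ± 0.06 (adjusted p = 0.000949). Copa, the alpha subunit of the outer coat, had 1693 and 1715 in knock-out islets, against 2442 and 2489 in wild type islets, and fell by 0.53 ± 0.03 (adjusted p = 0.000849). Its partner Copb2, the beta prime subunit, had 1517 and 1431 in knock-out islets, against 2538 and 2613 in wild type islets at 93341_r_at, and fell by 0.80 ± 0.05 (adjusted p = 0.000657). That Copb2 set was chosen under relaxed design rules. At these sets all 3 genes had no overlap and held in every alternative. At 93340_f_at Copb2 had 689 and 710.4 in knock-out islets, against 887 and 1143 in wild type islets, and fell by 0.51 ± 0.13 (adjusted p = 0.0358), a call lost without either knock-out array or the second wild type array. The promoters of Copb1 and Copb2, printed above, both carry CCACGTCA close to the start.

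The small zeta subunit has 2 forms that changed in opposite directions. Copz1, the common form, had 952 and 1033 in knock-out islets, against 845 and 849.9 in wild type islets, and rose slightly by 0.22 ± 0.06 (adjusted p = 0.0355). Copz2 had 430.5 and 430.3 in knock-out islets, against 659 and 524 in wild type islets, and fell by 0.43 ± 0.12 (adjusted p = 0.0473). Leaving out the first wild type array ended both calls (adjusted p 0.142 and 0.172), Copz1 ended also without the second, and Copz2 without either knock-out array.

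Among the other COPI subunits no probe set passed. Cope, the epsilon subunit, had 828 and 778 in knock-out islets, against 841 and 873 in wild type islets (-0.09 ± 0.06, adjusted p = 0.237). Copg1, a gamma subunit, had 757 and 591 in knock-out islets, against 765 and 732 in wild type islets at 96936_at (-0.15 ± 0.13, adjusted p = 0.371). Its set 94427_at (0.09 ± 0.10, adjusted p = 0.489), its set 109809_at on MG-U74B (0.48 ± 0.57, adjusted p = 0.58) and Copg2 (0.26 ± 0.27, adjusted p = 0.525) had changes above 0 that did not pass.

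The p24 proteins fell on MG-U74A and were mixed on MG-U74B. On MG-U74A 4 of 5 tested probe sets fell, with a median of -0.91, and the fifth, of Tmed9, did not pass. Tmed3 had 1399 and 1293 in knock-out islets, against 2673 and 2695 in wild type islets, and fell by 0.98 ± 0.05 (adjusted p = 0.000504), to 0.501 of the wild type mean. Tmed7 had 1133 and 949.7 in knock-out islets, against 2126 and 2171 in wild type islets at 94903_at, and fell by 1.03 ± 0.09 (adjusted p = 0.00199). Its set 160183_f_at had 778 and 779 in knock-out islets, against 1605 and 1378 in wild type islets, and fell by 0.91 ± 0.08 (adjusted p = 0.00213). Tmed4 had 643 and 629 in knock-out islets, against 1158 and 1128 in wild type islets, and fell by 0.82 ± 0.05 (adjusted p = 0.000601). The knock-out arrays of these 4 sets were well below the wild type arrays, and the calls held in every alternative. Tmed9 had 626 and 820.1 in knock-out islets, against 522 and 408 in wild type islets, both knock-out arrays above both wild type arrays, and just missed the threshold (0.61 ± 0.18, adjusted p = 0.0531).

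**Figure D3:**
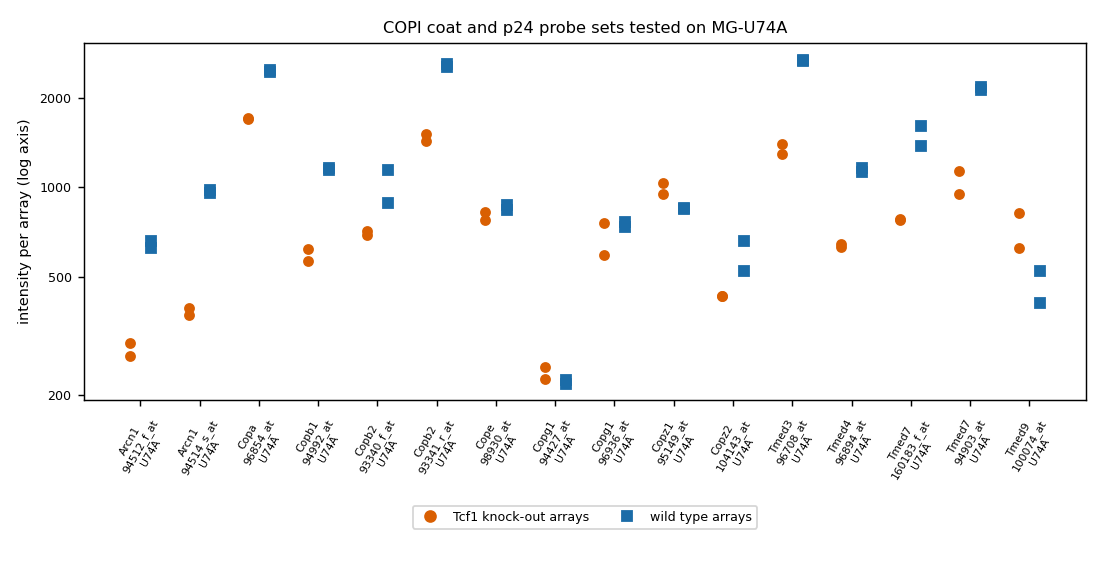
Intensity on each MG-U74A array (log axis) of the tested COPI and p24 probe sets; circles are the 2 Tcf1 knock-out arrays and squares the 2 wild type arrays. Circles lie below squares for Arcn1, Copa, Copb1, Copb2, Cope, Copz2, Tmed3, Tmed4 and Tmed7, overlap them for Copg1 at 96936_at, and lie above them for Copg1 at 94427_at, Copz1 and Tmed9.

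On MG-U74B 1 of 4 tested p24 probe sets fell and 1 rose. Tmed8, a less studied relative of the p24 proteins, had 631 and 771 in knock-out islets, against 2076 and 1997 in wild type islets, and fell by 1.51 ± 0.14 (adjusted p = 0.00779). Its MG-U74A set lay below 0 on all arrays and was not tested. Tmed2, a p24 protein of the early Golgi, had 456 and 401 in knock-out islets, against 198 and 172 in wild type islets, and rose by 1.11 ± 0.23 (adjusted p = 0.0372). Both calls ended without either wild type array (adjusted p 0.103 to 0.185), and that of Tmed2 also without either knock-out array. Tmed5 had 1342 and 1389 in knock-out islets, against 1474 and 1298 in wild type islets, and did not pass (-0.02 ± 0.12, adjusted p = 0.927), and neither did the dim Tmed6 (0.02 ± 0.40, adjusted p = 0.977).

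**Figure D4:**
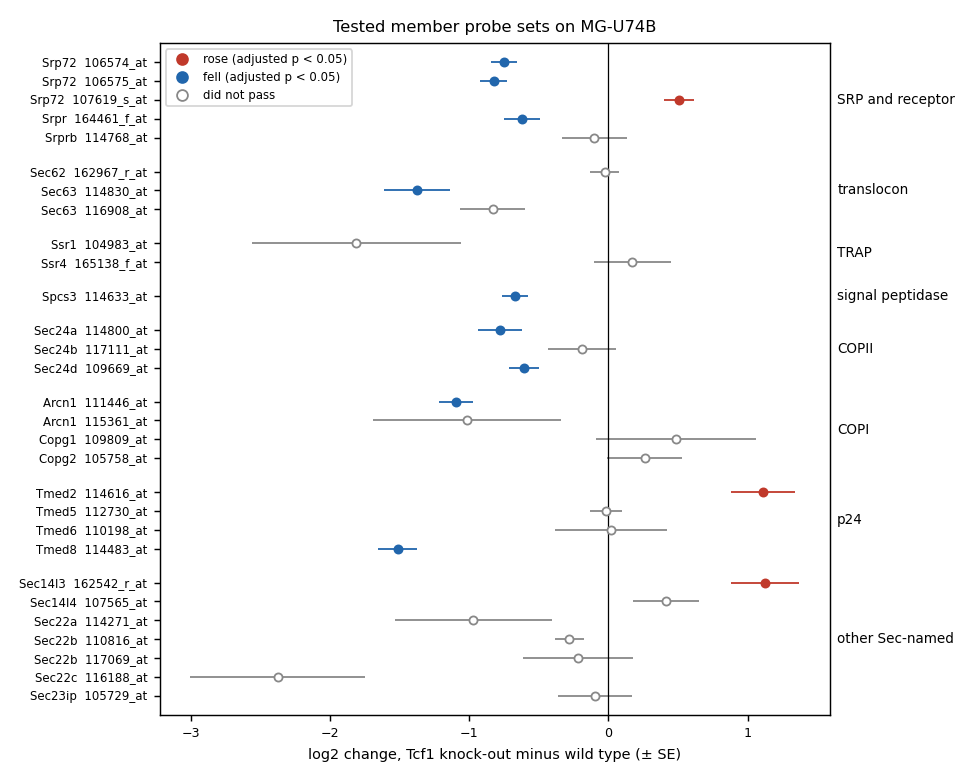
Log2 change, knock-out minus wild type, with its standard error, for each of the 29 tested member probe sets on MG-U74B, grouped by role; filled points passed the test (red rose, blue fell) and open points did not. Error bars are wider than on MG-U74A, and Tmed8, Sec63 and Arcn1 have the largest falls that passed.

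The other Sec-named genes have varied tasks. On MG-U74A 3 of 6 tested probe sets fell and 2 rose, and on MG-U74B 1 of 7 rose. Sec22b, a SNARE that fuses vesicles between ER and Golgi, had 335 and 310.2 in knock-out islets, against 727 and 726 in wild type islets at 93440_at, and fell by 1.11 ± 0.07 (adjusted p = 0.000711), in every alternative. At 103953_at it had 299 and 314 in knock-out islets, against 203 and 201 in wild type islets, and rose by 0.55 ± 0.09 (adjusted p = 0.00939), a call lost without either wild type array. On MG-U74B its set 110816_at had 2715 and 3017 in knock-out islets, against 3403 and 3557 in wild type islets, and did not pass (-0.28 ± 0.10, adjusted p = 0.127), and 117069_at overlapped between genotypes (-0.22 ± 0.39, adjusted p = 0.72). Sec22a and Sec22c did not pass, and the dim set of Sec22c was lower on both knock-out arrays, with 5.80 and 60.3 in knock-out islets, against 214 and 269.9 in wild type islets (adjusted p = 0.0665).

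Sec23ip, which binds Sec23 at ER exit sites, had 226 and 232 in knock-out islets, against 101 and 137 in wild type islets, and rose by 0.83 ± 0.17 on MG-U74A (adjusted p = 0.0178). That call ended without either knock-out array or the first wild type array. Its MG-U74B set did not pass, with 258 and 220.3 in knock-out islets, against 291 and 227 in wild type islets (-0.10 ± 0.27, adjusted p = 0.816). The Sec14-like proteins bind lipids and are no part of the coats. Sec14l2 had 207 and 106 in knock-out islets, against 371 and 387 in wild type islets, and fell by 1.21 ± 0.30 (adjusted p = 0.0315). Sec14l1 had 80.7 and 80.7 in knock-out islets, against 199.6 and 158 in wild type islets at 95665_at, and fell by 0.94 ± 0.17 (adjusted p = 0.0128), while 95664_at did not pass (-0.15 ± 0.14, adjusted p = 0.422). Sec14l3 had 648 and 452 in knock-out islets, against 239.6 and 229.8 in wild type islets, and rose by 1.12 ± 0.25 (adjusted p = 0.0423), and Sec14l4 did not pass (0.41 ± 0.24, adjusted p = 0.279). The Sec14l1 call ended without the first wild type array, the Sec14l2 call without either wild type array, and the Sec14l3 call without any 1 of the 4. Without the whole group of other Sec-named genes, 27 of 48 members fell and 10 rose on MG-U74A, where 29.0% of all tested probe sets fell and 23.9% rose. On MG-U74B 9 of 22 fell and 2 rose, where 8.87% of all fell and 8.59% rose. The shares that rose were near those of all probe sets.

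In 5 member genes, probe sets of the same gene changed in opposite directions. Over both types, 9 member genes had more than 1 probe set that passed, and in 5 of them, Sar1b, Sec22b, Sec62, Srp72 and Ssr3, directions were opposed. No test compared this share with that of other genes. Sec62 counts as opposed through 99501_at, which was bright enough to be tested only through its knock-out arrays. Over all single-symbol genes, 74 of 543 were opposed (13.6%). On MG-U74A it was 4 of 7 member genes, where 12.4% of 330 genes were opposed, and on MG-U74B 1 of 1, where 7.61% of 92 were. The Gapdh 3' to 5' ratio, which was lower on the knock-out arrays of MG-U74A, was lower on those of MG-U74B as well, with 0.907 ± 0.00964 in knock-out islets, against 3.10 ± 0.0382 in wild type islets. Where the probes of each set lie along the transcript was not analysed here, and the part of RNA quality in these opposed pairs was not tested. Of the 100 member probe sets 23 had a suffix letter that marks probes with a chance of matching other transcripts or relaxed rules. Among the 44 tested on MG-U74A without such a letter, 22 fell and 10 rose. Of all tested probe sets there, with or without a letter, 29.0% fell and 23.9% rose, so the share that rose was near that of all.

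**Figure D5:**
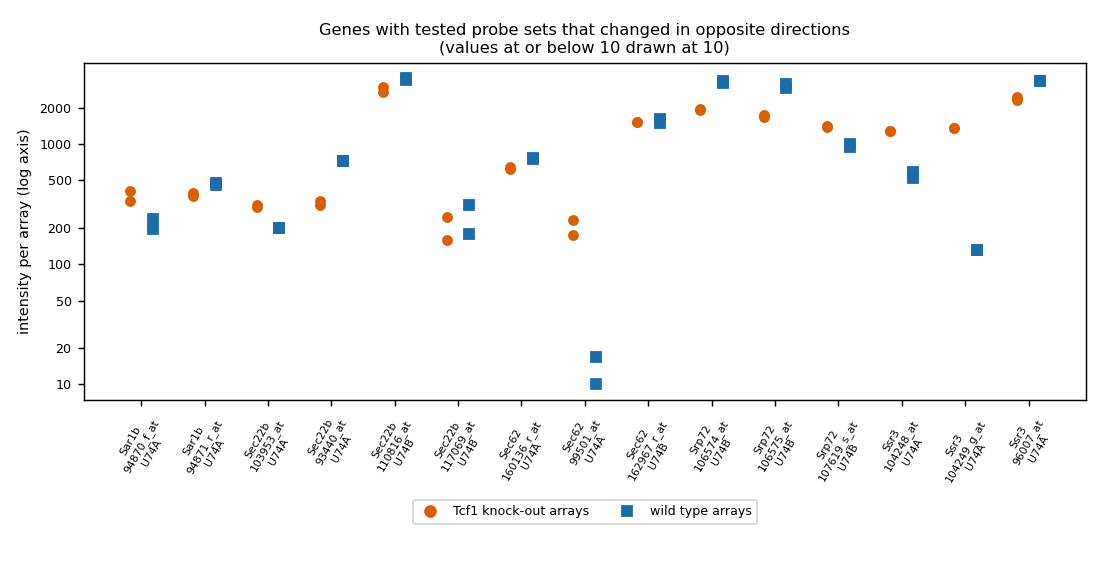
Intensity on each array (log axis) of all tested probe sets of Sar1b, Sec22b, Sec62, Srp72 and Ssr3; circles are Tcf1 knock-out arrays, squares wild type arrays, and values at or below 10 are drawn at 10. For each gene at least 1 probe set has its circles above its squares and at least 1 below, with the widest gap upward at 104249_g_at of Ssr3 and at 99501_at of Sec62.

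Related genes of the early secretory pathway, taken from a list of 78 tethers, SNAREs, cargo receptors, ARF regulators, translocon helpers and sugar-adding enzymes that the members' pattern leaves out, were counted in the same way. On MG-U74A 29 of 67 tested probe sets fell (43.3%) and 14 rose (20.9%), with a median of -0.26, where 29.0% of all tested probe sets fell and 23.9% rose. Fewer of them fell and fewer rose when either wild type array was left out, as over all tested probe sets. On MG-U74B 7 of 38 fell (18.4%) and 4 rose (10.5%), with a median of -0.17, where 8.87% of all fell and 8.59% rose. The shares that rose were thus near those of all probe sets. Lman1, a receptor that carries glycoproteins out of the ER, fell on both types, with 714 and 986 in knock-out islets, against 2184 and 2502 in wild type islets on MG-U74A (-1.45 ± 0.18, adjusted p = 0.00441) and 962 and 952 in knock-out islets, against 3315 and 3407 in wild type islets on MG-U74B (-1.79 ± 0.09, adjusted p = 0.0053). Gorasp2, which helps to stack the Golgi, had 959.6 and 1020.2 in knock-out islets, against 2841 and 2861 in wild type islets and the largest fall of the list on MG-U74A (-1.50 ± 0.05, adjusted p = 0.000191). Tram1, which contacts nascent chains at the channel, had 1802 and 1929 in knock-out islets, against 4582 and 4630.4 in wild type islets (-1.29 ± 0.05, adjusted p = 0.000246). A second Tram1 set, 160936_at, fell as well (-0.96 ± 0.08, adjusted p = 0.00175). At these Lman1, Gorasp2 and Tram1 probe sets the knock-out arrays were all below the wild type arrays. A Gorasp2 set on MG-U74B, 164800_at, did not pass and overlapped between genotypes, with 1506 and 1194 in knock-out islets, against 1137 and 1269.8 in wild type islets (0.16 ± 0.16, adjusted p = 0.514).

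Uso1, a tether between ER vesicles and the Golgi (-1.23 ± 0.09, adjusted p = 0.00118), and Yipf4, a Golgi membrane protein (-1.37 ± 0.13, adjusted p = 0.00224), fell as well on MG-U74A. The rises named there were Ergic3, a cargo receptor (1.11 ± 0.08, adjusted p = 0.000981), the SNARE Gosr2 (1.01 ± 0.09, adjusted p = 0.00206), the ARF regulator Arfgap2 (1.36 ± 0.35, adjusted p = 0.0342), Pef1 (0.86 ± 0.16, adjusted p = 0.0146) and Nsf, the ATPase that takes SNARE complexes apart (0.88 ± 0.18, adjusted p = 0.0186). Pef1 reached the mean needed for testing only through its knock-out arrays, with a wild type mean of 57.6. On MG-U74B Nsf fell instead, with 838 and 821 in knock-out islets, against 1563 and 1389 in wild type islets (-0.81 ± 0.12, adjusted p = 0.0181), while its MG-U74A set had 171 and 157 in knock-out islets, against 66.8 and 89.5 in wild type islets. Bet1, an ER to Golgi SNARE (-1.54 ± 0.26, adjusted p = 0.0235), Trappc6b of the TRAPP tether (-0.81 ± 0.17, adjusted p = 0.0359) and Magt1 of an oligosaccharyltransferase (-0.70 ± 0.10, adjusted p = 0.0154) fell on MG-U74B too. Other sets of these genes did not pass, with Magt1 at 110460_at (-0.12 ± 0.22, adjusted p = 0.721) and 106968_at (0.23 ± 0.27, adjusted p = 0.572) on the same type and Bet1 at 101401_at on MG-U74A (-0.16 ± 0.26, adjusted p = 0.649). Arfgap1, the GTPase activator that acts on COPI coats, had 1079 and 1015 in knock-out islets, against 467 and 240.2 in wild type islets, and rose (1.57 ± 0.32, adjusted p = 0.0359), as did Kdelr3, a receptor that returns ER proteins (0.69 ± 0.15, adjusted p = 0.038), the SNARE Ykt6 (0.65 ± 0.12, adjusted p = 0.0282) and Ier3ip1 (0.41 ± 0.10, adjusted p = 0.0497). Kdelr3 (0.50 ± 0.07, adjusted p = 0.00798) and Ykt6 (0.74 ± 0.16, adjusted p = 0.0208) rose on MG-U74A as well, and so did a second Gosr2 set, 94072_g_at (0.63 ± 0.07, adjusted p = 0.00292). Gosr2 at 94071_at (0.37 ± 0.13, adjusted p = 0.0779) and Ier3ip1 at 106554_at (-0.12 ± 0.15, adjusted p = 0.602) did not pass. As for the members, without either wild type array none of the calls on MG-U74B remained.

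Not every member could be compared. In all 17 of the 100 probe sets were not tested because their mean over the 4 arrays was under 62.5, 12 of them on the first array type and 5 on the second. They covered dim or negative probe sets of genes that had another tested one, except for Sec1. On MG-U74B the acinar markers summed to 916 to 1350 in knock-out islets, against 11941 to 12140 in wild type islets, and 2 of 2 fell. The B and plasma cell markers there summed to 4311 to 4577 in knock-out islets, against 136 to 203 in wild type islets, and 2 of 2 rose. Duct markers there summed to 379 to 428 in knock-out islets, against 246 to 268 in wild type islets, the reverse of the order on MG-U74A, and neither of 2 tested passed. The sums of the T cell list, 42.5 to 167 in knock-out islets, against 39.9 to 136 in wild type islets, overlapped. The part of these markers in the members' changes on that type was not tested either.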

How the data were processed

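Total RNA of Tcf1 knock-out and wild type islets was measured on Affymetrix MG-U74A (12488 probe sets) and MG-U74B (12477), with 2 arrays per genotype on each. The authors deposited a linear intensity for each probe set, and the values show that they scaled each array to a common mean. Without the highest and lowest 2% of probe sets it was 250.2 for MG-U74A and 250.1 for MG-U74B. How intensities were summarised from probes is not given in the labels, and 18.4% to 26.7% of an array's values were below 0.

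Each array was rescaled to its type's trimmed mean, negative values were replaced by 0, and 25.0 was added before taking log2, so log2 changes of dim probe sets are smaller than their intensity ratios. The 66 control probe sets of each type and those with a mean under 62.5 were left out, which kept 7516 and 7861 to test. Knock-out was compared with wild type on each type with limma 3.58.1 in R 4.3.3 (lmFit, then eBayes with trend), two-sided, with Benjamini-Hochberg adjustment over the type and a threshold of 0.05, after the code was tested on simulated data. Means carry the SD of 2 arrays and log2 changes their standard error. For arrays their number limits the precision. Probe sets were named by GEO's platform annotation, with 10855 and 10603 of a single symbol, brought up to date with RefSeq's gene table of GRCm38.p6, which also gave the promoters.

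The members, roles, related genes, marker lists, motifs and tests were chosen with earlier results of these data known. Array values were given, in each role and type, for the up to 4 probe sets with the largest changes past the threshold and no overlap, the one with the highest mean, and all of a gene with opposed calls or on both types. They were also given for the up to 5 largest rises and falls of the related genes. Other values lie outside this rule and were added after they were seen. They cover members that did not pass and further probe sets of the related genes. They also cover members that passed, namely Copb2 at 93340_f_at, Copz1, Copz2, Sec23a, Srp14 and Ssr2. The contrasts of Sec23a with Sec23b, of Srp14 with Srp9 and of Copz1 with Copz2 rest in part on these.

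Replicate numbers come from the titles. Deviations of same-numbered arrays from their group means correlated at 0.02 on MG-U74A and 0.03 on MG-U74B, so the numbers were not taken to pair the arrays, and the replicate block is an alternative only. The other alternatives were other constants added before log2, the deposited values without rescaling, a generalised log2 with no floor, quantile normalization, no filter and a stricter one, no variance trend, and each array left out in turn.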

Additional observations from a re-analysis of the deposited data

Results flagged for a closer look

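Among the probe sets that were too dim to be tested, 2 had a signal on both knock-out arrays and almost none on the wild type arrays. The Sec23a probe set 93711_at on MG-U74A had 139.6 and 138 in knock-out islets, against -23.5 and -19.7 in wild type islets, with a knock-out mean of 139. The tested Sec23a probe set 104709_at rose. The Tmed3 probe set 165037_r_at on MG-U74B had 117 and 63.8 in knock-out islets, against 15.6 and 0.700 in wild type islets, with a knock-out mean of 90.4. Its direction is opposite to that of the tested Tmed3 probe set 96708_at on MG-U74A, which fell. Both were singled out because the knock-out arrays were above 62.5, the lowest mean that was tested, and the wild type arrays below the constant added before log2. That choice fixed their direction, so 93711_at adds nothing to the Sec23a rise, and neither difference was tested.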

How the results depend on the processing

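Of 1074 values of the 83 tested members under the alternatives, 902 kept their direction and their side of the threshold, 145 lost the call, 9 gained one and 18 changed sign. All 18 were of 12 probe sets that had not passed, and 17 came from leaving out 1 array. Over the 4 fits with an array left out, their log2 changes ran from -0.0442 to 1.01 for Copg1 109809_at, -0.33 to 0.0171 for Copg1 96936_at, -0.0789 to 0.0124 for Sec13, -0.58 to 0.14 for Sec22b 117069_at, -0.26 to 0.0660 for Sec23ip 105729_at and -0.14 to 0.0191 for Sec24c. They ran from -0.63 to 0.24 for Sec61a2, -0.0783 to 0.0243 for Sec62 162967_r_at, -0.34 to 0.14 for Srprb, -0.0875 to 0.43 for Ssr4, -0.11 to 0.0719 for Tmed5 and -0.29 to 0.33 for Tmed6. With quantile normalization that of Tmed6 was -0.00587.

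On MG-U74A the count of members that fell stayed within 1.5 times of 30 under every alternative that kept all 4 arrays, with 20 at the lowest, and quantile normalization gave 27 falls and 13 rises. Of the 42 calls there, 14 were lost with no filter, 11 with no variance trend, 8 with the replicate block and 4 with quantile normalization. On MG-U74B 5, 9 and 3 calls were lost with the first 3 of these. The losses named with the genes above are mostly those from leaving out an array. With all 4 arrays the counts on MG-U74B moved most. With no filter, 764 probe sets of that type changed (432 fell, 332 rose), with 7 members (1 rose) and 4 related probe sets (3 fell, 1 rose). With no variance trend, 638 changed (343 fell, 295 rose), with 3 members, all of which fell and 0 rose (3 rose at an unadjusted p under 0.05 in limma's test), and 2 related probe sets that fell and 0 that rose. The replicate block left 24 members that fell and 10 that rose on MG-U74A, and 9 and 1 on MG-U74B, and 7 related probe sets on MG-U74B, of which 2 rose.

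Leaving out 1 array at a time, 23 to 38 members changed on MG-U74A (18 to 29 fell, 5 to 10 rose) and 0 to 5 on MG-U74B (0 to 5 fell, 0 to 0 rose). At an unadjusted p under 0.05 in limma's test, members of MG-U74B still changed in both directions in these fits, as did probe sets outside the members. Over all probe sets the counts were 2264 to 4097 on MG-U74A (1082 to 2401 fell, 1182 to 1729 rose) and 0 to 538 on MG-U74B (0 to 399 fell, 0 to 139 rose). Related probe sets numbered 28 to 46 on MG-U74A (22 to 33 fell, 6 to 13 rose) and 0 to 2 on MG-U74B (0 to 1 fell, 0 to 1 rose). A pair with an array left out leaves 1 array, which limma assumes to vary like the other genotype, and on MG-U74B no probe set passed without either wild type array and no member rose without any 1 of the 4. The members' median log2 change stayed below 0 under every alternative, with a range of -0.37 to -0.29 on MG-U74A and of -0.58 to -0.15 on MG-U74B. The cause of these shifts was not tested.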
